A study of Mus musculus with 12 samples.

Results

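AP-1 and immediate early transcription factors were followed in mouse liver through 10 genes: Jun, Junb, Jund, Fos, Fosb, Fosl2, Egr1, Atf3, Ier2 and Klf6. All 10 were found by symbol among the 17742 genes named on the array, through 12 probes, of which Junb and Ier2 had 2 each. Where a gene had 2 probes, the one used was chosen by its mean intensity over the 12 arrays, the brighter of the pair. The list of genes was drawn up with earlier results of these data known, so the adjusted p-values below, which come from the fit of all genes, are given for reference and are no independent support for any member.

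Total RNA of whole liver was hybridised to 12 single-colour (Cy5) mouse OneArray chips. The control group were mice with no treatment, the STZ group were mice with diabetes mellitus induced by STZ (streptozotocin, which destroys pancreatic beta cells), and the STZ+MENS group were STZ mice that also received MENS, an abbreviation the labels do not spell out. MENS was delivered by a circuit board run from a MENS device, for 1 h on each of 5 days a week through 6 weeks. All groups carry an age of 8 weeks in the labels, with no strain, sex, STZ dose or time since STZ, and the controls are not said to have received a vehicle or an inactive device. Each group held 2 liver samples with 2 arrays each, so n = 2 per group throughout. Whether a sample stands for a single animal or a pool is not stated, and p-values measure the spread between these samples only. Of 12 hepatocyte markers 6 were measured. On the log2 scale Alb, Apoa1 and Ttr lay between 18.66 and 19.04, at the top of the arrays' range where differences cannot be read, and Fgb between 17.46 and 18.52. Apob and Cps1 were down to 14.21 and 14.67 in STZ+MENS sample 1. Without overlap, 4 of the 6 were lower in STZ+MENS than in control, where 23% of all genes were. The 4 include Alb, whose difference of -0.07 cannot be read at that level. All levels below are log2(intensity + 50), means of the 2 arrays of a sample, differences are between group means with their standard error from limma, and a call means a Benjamini-Hochberg adjusted p under 0.05 over all genes. In whole tissue, fewer cells of a type and less RNA per cell cannot be told apart.

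AP-1 is not one protein but a family of dimers. Jun proteins (Jun, Junb, Jund) pair with each other or with Fos proteins (Fos, Fosb, Fosl2) through a leucine zipper and bind a short palindromic site, and Atf3 is a relative that pairs with Jun proteins or with itself. Many of these genes are immediate early genes: their transcription starts within minutes of a growth factor, cytokine or stress signal, through MAP kinases and the factors SRF, ELK1 and CREB, without new protein synthesis, and their messengers are short-lived. Egr1, Ier2 and Klf6 answer the same signals but are no AP-1 proteins. In liver, Jun is known for its part in regeneration and hepatocyte survival, and Egr1 and Atf3 for their response to injury and to metabolic stress.

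Promoter windows of 300 bases, from 250 before to 50 after the start of a gene, were held for 8 of the 10 genes in the RefSeq-derived table of build GRCm38.p6, but not for Egr1 and Ier2. The promoters of Junb and Fos are printed because, of the genes with a window, they have the largest differences between groups below, and those of Jun and Klf6 because they share an 8-base element. Each run reads 5′ to 3′ on the strand of the gene, from 240 bases before the start through 10 bases from it. The windows lie at chr8:84978739-84978988 (minus strand), chr12:85473650-85473899 (plus strand), chr4:95052213-95052462 (minus strand) and chr13:5861249-5861498 (plus strand). Capitals mark the letters of the motifs searched.

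Junb: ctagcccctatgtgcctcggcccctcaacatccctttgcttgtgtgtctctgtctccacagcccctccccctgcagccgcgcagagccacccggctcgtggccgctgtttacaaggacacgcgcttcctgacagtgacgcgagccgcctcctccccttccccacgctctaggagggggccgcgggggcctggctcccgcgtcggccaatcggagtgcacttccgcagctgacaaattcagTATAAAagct
Fos: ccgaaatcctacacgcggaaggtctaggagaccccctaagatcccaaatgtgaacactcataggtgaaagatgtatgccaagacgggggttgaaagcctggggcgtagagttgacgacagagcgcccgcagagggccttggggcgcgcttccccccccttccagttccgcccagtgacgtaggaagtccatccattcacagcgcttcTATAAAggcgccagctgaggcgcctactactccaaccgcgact
Jun: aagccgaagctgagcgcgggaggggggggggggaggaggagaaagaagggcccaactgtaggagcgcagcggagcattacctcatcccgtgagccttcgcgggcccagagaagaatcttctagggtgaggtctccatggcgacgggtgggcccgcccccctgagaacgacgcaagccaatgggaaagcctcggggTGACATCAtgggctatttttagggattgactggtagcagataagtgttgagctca
Klf6: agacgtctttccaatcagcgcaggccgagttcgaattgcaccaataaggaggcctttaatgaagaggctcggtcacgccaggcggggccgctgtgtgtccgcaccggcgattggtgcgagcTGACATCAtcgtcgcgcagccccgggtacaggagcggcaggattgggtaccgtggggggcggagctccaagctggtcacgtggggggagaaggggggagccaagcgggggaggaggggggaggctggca

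Motifs were searched on both strands of the 300-base windows, and none of the matches overlapped another. The variant AP-1 element TGACATCA, known from the Jun promoter where Jun dimers with ATF proteins bind, was found in Jun at bases -45 to -38 from the start and in Klf6 at -119 to -112, and 3.62% of all 32851 windows hold it. The EGR zinc finger site (GCGGGGGCG or GCGTGGGCG) was found in Fosb at -50 to -42 and in Fosl2 at -79 to -71, against 3.47% of all windows. The Fosb window counts from a start inside the annotated gene, which reaches to base 19310118, so the Fosb match lies within the gene. The letters TATAAA were found in Fos at -33 to -28 and in Junb at 1 to 6, against 13.6%. The classical AP-1 site TGACTCA (5.2% of all windows), the cAMP response element TGACGTCA (1.79%) and the CArG box core bound by SRF (1.63%) were in none of the 8 windows, which says only that these letters are not in these windows. A match is a stretch of letters and not a measured binding site.

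Set side by side, the members did not share one pattern. Junb, Egr1 and Ier2 were higher in both STZ groups than in control, Fos was lowest in STZ+MENS, Klf6 was highest in control and lowest in STZ+MENS, and Jun, Jund and Fosl2 overlapped between groups in all 3 comparisons. Of the 10 members, limma called 0 in each comparison, where it called 0.00564% of all genes for STZ against control, 0% for STZ+MENS against STZ and 0.00564% for STZ+MENS against control. An unadjusted p under 0.05 was reached by 3 members for STZ against control (17% of all genes), by 2 for STZ+MENS against STZ (25.4%) and by 5 for STZ+MENS against control (18%).

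Counted by overlap, both STZ samples lay above both controls for 4 members (Junb, Fos, Egr1, Ier2), as for 24% of all genes, and below both for 2 (Fosb, Klf6), as for 28.2%. Both STZ+MENS samples lay above both STZ samples for 0 members, as for 34% of all genes, and below both for 4 (Junb, Fos, Atf3, Klf6), as for 23.9%. Against control, STZ+MENS was higher without overlap for 3 (Junb, Egr1, Ier2; 25.6% of all genes) and lower for 3 (Fos, Fosb, Klf6; 23%). The median difference of the members was 0.22 for STZ against control, where that of all genes was -0.02, then -0.12 against 0.06 for STZ+MENS against STZ, and 0.23 against 0.02 for STZ+MENS against control. The first array of each sample alone put 3 members higher in STZ+MENS than in STZ without overlap.

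**Figure D1:**
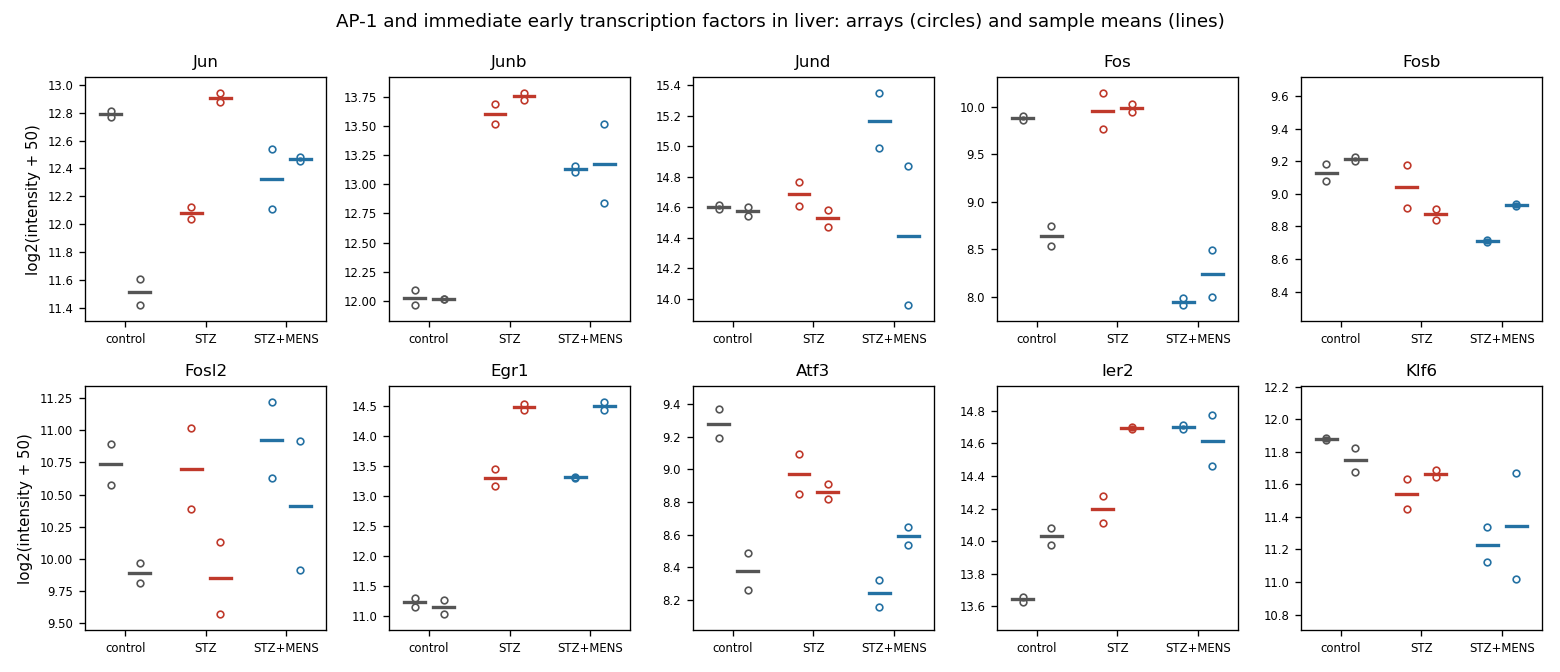
Levels of the 10 genes as log2(intensity + 50) on the y axis, by group on the x axis. Circles are single arrays and lines the means of the 2 samples of a group, sample 1 on the left, with a y axis of its own in each panel. Junb and Egr1 lie higher in both STZ groups than in the controls, and Fos lies lowest in STZ+MENS.

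Among the Jun proteins, Junb had the smallest standard error of the 10 members. Junb is an AP-1 subunit that can stand in for Jun or restrain it. Its level was 12.03 and 12.02 in control samples 1 and 2, 13.60 and 13.76 in STZ, and 13.13 and 13.18 in STZ+MENS. The groups did not overlap in any comparison, and STZ+MENS stood between the other two. STZ exceeded control by 1.66 ± 0.14 (SE; 3.16-fold, adjusted p = 0.0648), which missed the threshold. STZ+MENS lay below STZ by -0.53 ± 0.14 (1.44-fold lower, adjusted p = 0.0917) and above control by 1.13 ± 0.14 (2.19-fold, adjusted p = 0.111). In a fit of STZ and control alone, without the STZ+MENS samples in the estimate of the spread, Junb was called (adjusted p = 0.0199). That fit called 181 of all 17742 genes. With first arrays only the adjusted p of Junb for STZ against control was 0.109, and with second arrays only 0.120. In fits of only the groups compared, it was 0.1652 for STZ+MENS against STZ and 0.1675 for STZ+MENS against control.

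On the brighter Junb probe the samples of a group were closer together than the arrays of a sample. The pooled SD was 0.07 between samples and 0.21 between arrays of a sample, and the 2 arrays of STZ+MENS sample 2 were 0.68 apart. The dimmer Junb probe had the opposite order (0.23 between samples and 0.08 between arrays). Klf6 was the other member with the order of the brighter Junb probe (0.09 and 0.21). For the remaining 8 members the samples of a group differed more than the arrays of a sample, by most for Egr1 (0.68 against 0.12) and Jun (0.62 against 0.14).

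Junb could also be read on its second, dimmer probe. There the level was 10.37 and 10.83 in control, 12.06 and 11.84 in STZ, and 11.15 and 11.38 in STZ+MENS. The order of the groups was the one seen on the brighter probe, again without overlap. In a fit of all named probes the differences were 1.35 ± 0.20 for STZ against control, -0.68 ± 0.20 for STZ+MENS against STZ and 0.66 ± 0.20 for STZ+MENS against control. The probes measure the same RNA samples, so they are no replicates of the condition.

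**Figure D2:**
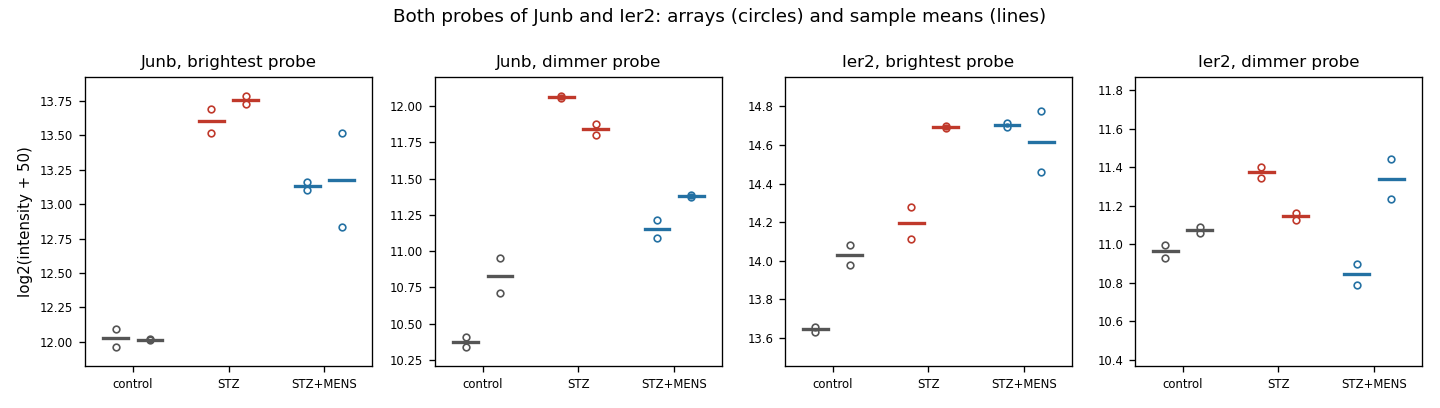
Both probes of Junb and of Ier2, as log2(intensity + 50) on the y axis, by group on the x axis, with arrays as circles and sample means as lines. Both Junb probes place STZ above STZ+MENS and STZ+MENS above control, while the dimmer Ier2 probe places STZ+MENS sample 1, at 10.85, below both controls.

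Jun, the founding AP-1 subunit, had levels of 12.79 and 11.51 in control, 12.08 and 12.91 in STZ, and 12.33 and 12.47 in STZ+MENS. The control samples were further apart (2.43-fold) than the samples of either other group, and bracketed 3 of the other 4 samples. STZ differed from control by 0.34 ± 0.45 (adjusted p = 0.752) and STZ+MENS from STZ by -0.10 ± 0.45 (adjusted p = 0.915). The difference of STZ from control turned to -0.30 without control sample 2 and to -0.07 without STZ sample 2, and that of STZ+MENS from STZ to 0.32 without STZ sample 2.

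Jund, the Jun protein that most tissues hold steadily, had levels of 14.60 and 14.57 in control, 14.69 and 14.53 in STZ, and 15.17 and 14.41 in STZ+MENS. Only STZ+MENS sample 1 stood apart, and the arrays of STZ+MENS sample 2 were themselves 0.92 apart. Differences were 0.02 ± 0.25 for STZ against control (adjusted p = 0.979) and 0.18 ± 0.25 for STZ+MENS against STZ (adjusted p = 0.689). The second turned to -0.19 without STZ+MENS sample 1.

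Of the Fos proteins, Fos had the widest group differences. Fos is the partner that gives the dimer with Jun its stability on DNA. Its level was 9.88 and 8.64 in control, 9.96 and 9.99 in STZ, and 7.95 and 8.25 in STZ+MENS. Both STZ+MENS samples lay below all 4 others, STZ samples lay within 0.03 of each other, and control sample 1 stood near STZ while control sample 2 stood between STZ and STZ+MENS. STZ+MENS was lower than STZ by -1.87 ± 0.38 (3.67-fold lower, adjusted p = 0.068), and 0.445% of all genes differed by more in that comparison. Against control the differences were -1.16 ± 0.38 for STZ+MENS (2.24-fold lower, adjusted p = 0.206) and 0.71 ± 0.38 for STZ (1.64-fold higher, adjusted p = 0.413). The second of these was 0.09 without control sample 2 and 1.33 without control sample 1.

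Fosb, which is spliced into a full and a truncated subunit, was at 9.13 and 9.22 in control, 9.04 and 8.87 in STZ, and 8.71 and 8.93 in STZ+MENS. Both STZ groups lay below control without overlap and overlapped each other. The differences were -0.22 ± 0.15 for STZ (adjusted p = 0.527) and -0.35 ± 0.15 for STZ+MENS (adjusted p = 0.295), both against control. Fosl2, a Fos relative that lacks the strong activation domain of Fos, was at 10.73 and 9.89 in control, 10.70 and 9.85 in STZ, and 10.92 and 10.41 in STZ+MENS. All groups overlapped, and Fosl2 had the widest spread between arrays of any member (pooled SD 0.43). Its differences were -0.04 ± 0.39 for STZ against control (adjusted p = 0.974) and 0.39 ± 0.39 for STZ+MENS against STZ (adjusted p = 0.569), and both took the other sign when STZ sample 2 was left out (0.39 and -0.03), the first also without control sample 1 (0.38).

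Atf3, a stress-induced factor that mostly represses, was at 9.28 and 8.38 in control, 8.97 and 8.86 in STZ, and 8.24 and 8.59 in STZ+MENS. The control samples bracketed both STZ samples, and both STZ+MENS samples lay below both STZ samples. The differences were 0.09 ± 0.31 for STZ against control (adjusted p = 0.915) and -0.50 ± 0.31 for STZ+MENS against STZ (1.42-fold lower, adjusted p = 0.354). The first was -0.36 without control sample 2.

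Egr1, a zinc finger factor, showed the largest differences of the list. Its level was 11.23 and 11.15 in control, 13.30 and 14.48 in STZ, and 13.31 and 14.49 in STZ+MENS. All 4 samples of the STZ groups lay over 2 log2 units above both controls, and each STZ+MENS sample lay within 0.02 of the STZ sample of the same number. The labels do not say that equal numbers mark a shared source, and the sample titles number the STZ and STZ+MENS samples differently. STZ exceeded control by 2.70 ± 0.49 (6.51-fold, adjusted p = 0.112), rank 16 of 17742 genes counted from the highest difference. STZ+MENS exceeded control by 2.71 ± 0.49 (6.56-fold, adjusted p = 0.114), rank 11. Neither passed in the fit of all 3 groups, but in a fit of STZ and control alone Egr1 was called (adjusted p = 0.0471). That fit called 181 of all 17742 genes. With first arrays only the adjusted p of Egr1 for STZ against control was 0.160, and with second arrays only 0.193. A fit of STZ+MENS and control alone gave Egr1 an adjusted p of 0.1675. STZ+MENS and STZ differed by 0.01 ± 0.49 (adjusted p = 0.991), with a standard error about as large as the difference of Junb in that comparison.

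Ier2, a short nuclear protein of the early response, was at 13.64 and 14.03 in control, 14.19 and 14.69 in STZ, and 14.70 and 14.62 in STZ+MENS. Both STZ groups lay above control without overlap. The differences from control were 0.61 ± 0.22 for STZ (1.53-fold, adjusted p = 0.250) and 0.83 ± 0.22 for STZ+MENS (1.77-fold, adjusted p = 0.153). The dimmer Ier2 probe did not repeat the second one. There the level was 10.96 and 11.07 in control, 11.37 and 11.14 in STZ, and 10.85 and 11.34 in STZ+MENS, with differences from control of 0.24 ± 0.20 for STZ and 0.07 ± 0.20 for STZ+MENS.

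Klf6, a Krüppel-like factor of wounding and hepatic stress, was at 11.88 and 11.75 in control, 11.54 and 11.67 in STZ, and 11.23 and 11.34 in STZ+MENS. The samples fell into the order control, STZ, STZ+MENS with no overlap between neighbours. The steps were small: -0.21 ± 0.14 from control to STZ (adjusted p = 0.503), -0.32 ± 0.14 from STZ to STZ+MENS (adjusted p = 0.225), and -0.53 ± 0.14 over both (1.44-fold lower, adjusted p = 0.153). The arrays of STZ+MENS sample 2 were 0.65 apart, wider than any step.

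**Figure D3:**
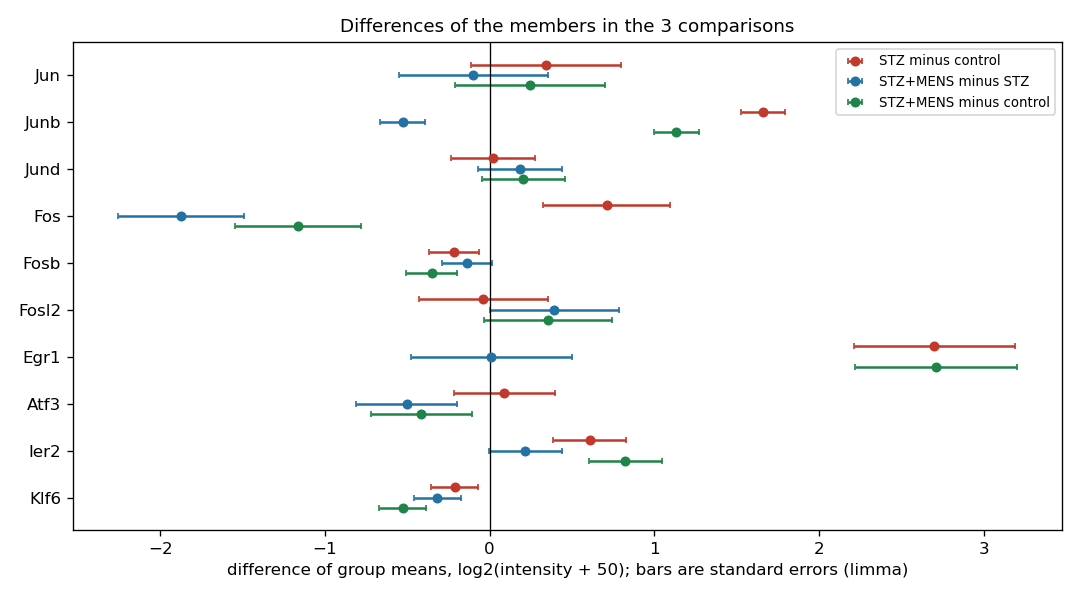
Differences between group means for the 10 genes on the x axis, in log2(intensity + 50), for the 3 comparisons in 3 colours, with bars for the standard error from limma. Egr1 and Junb lie to the right of 0 in both comparisons with control, and Fos lies at -1.87 in STZ+MENS against STZ; the 3 comparisons share groups pairwise and are not independent.

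Within control, the members split into those on which both samples were alike and those on which they were not. Control sample 1 was above sample 2 by 1.28 for Jun (2.43-fold), 1.24 for Fos (2.36-fold), 0.91 for Atf3 (1.87-fold) and 0.84 for Fosl2 (1.79-fold). Gaps larger than that of Jun were found in 1.22% of all genes, and larger than that of Fosl2 in 3.49%. The controls were 0.01 apart for Junb, 0.03 for Jund and 0.08 for Egr1, where the median gap of all genes was 0.18. Egr1 was far apart in the other groups instead, by 1.17 in STZ and 1.18 in STZ+MENS.

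Heat shock genes parted the same controls. Of 9 measured, 8 were higher in control sample 1, and 5 were more than 1 log2 unit apart, as for 2.38% of all genes. The other immediate early genes did not part the controls in this way. Of 44 measured, 23 were higher in control sample 1, and 2 were more than 1 log2 unit apart. The chaperone Hspa1a was at 13.96 and 12.57 in control, 12.18 and 10.62 in STZ, and 10.06 and 10.79 in STZ+MENS. The heat shock mean, relative to control, was 0.45 and -0.45 in the controls, 0.07 and -0.64 in STZ, and -1.70 and -1.24 in STZ+MENS. Without overlap, 1 of the 9 was higher and 1 lower in STZ than in control, 0 and 7 in STZ+MENS than in STZ, and 1 and 8 in STZ+MENS than in control, with 0 called. In the same order, the shares of all genes were 24% and 28.2%, 34% and 23.9%, and 25.6% and 23%. Both STZ+MENS samples lay lowest in the heat shock mean as they did for Fos. The part of the heat shock mean in the Fos and Atf3 values was not tested.

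**Figure D4:**
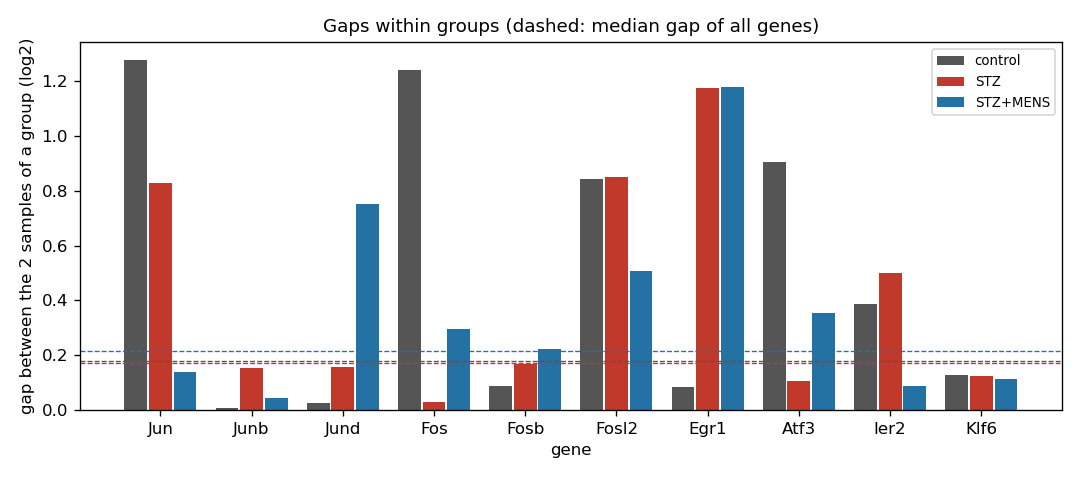
Gap between the 2 samples of each group on the y axis, in log2 units, for the 10 genes on the x axis, with bars for the groups and dashed lines for the median gap of all genes in a group. Jun and Fos have their tallest bars in control, at 1.28 and 1.24, and Egr1 in the STZ groups.

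Beyond the members, 44 of 47 listed immediate early genes were measured. Against control, STZ was higher without overlap for 17 of 44 (38.6%, where 24% of all genes were) and lower for 5 (11.4%, where 28.2% were). The median difference was 0.14 against -0.02 for all genes, and limma called 0. Klf10, a TGF-beta-inducible factor, was at 10.47 and 10.57 in control, 12.91 and 12.07 in STZ, and 12.14 and 11.58 in STZ+MENS, a difference of 1.97 ± 0.32 for STZ (3.90-fold, adjusted p = 0.101). The kinase Plk2 (1.70 ± 0.39, adjusted p = 0.143) and the antiproliferative Tob1 (1.16 ± 0.28, adjusted p = 0.151) were higher, and the kinase Plk3 was lower (-1.13 ± 0.37, adjusted p = 0.220).

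For STZ+MENS against STZ, 16 of these 44 were lower without overlap (36.4%, where 23.9% of all genes were) and 10 higher (22.7%, where 34% were). The median was -0.12 against 0.06, and 0 were called. The lower ones included Dusp6 and Dusp1, phosphatases that switch MAP kinases off. Of the other members of that family on the list, named after their values were seen, Dusp2 (7.69 and 7.71 in STZ, 7.72 and 7.97 in STZ+MENS) and Dusp5 (7.73 and 7.76, 8.08 and 8.01) were higher without overlap, and Dusp4 overlapped. Dusp6 was at 13.26 and 11.74 in control, 13.34 and 13.44 in STZ, and 11.56 and 12.12 in STZ+MENS, a difference of -1.54 ± 0.48 (adjusted p = 0.123). As for Fos, control sample 1 stood beside both STZ samples and control sample 2 well below them, but control sample 2 lay between the STZ+MENS samples here and above both for Fos. Dusp1 differed by -1.25 ± 0.26 (adjusted p = 0.068), Plk2 by -1.24 ± 0.39 (adjusted p = 0.124) and Zfp36l1, which speeds the decay of AU-rich messengers, by -1.18 ± 0.17 (adjusted p = 0.0596).

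Against control, STZ+MENS was higher without overlap for 10 of the 44 (22.7%, where 25.6% of all genes were) and lower for 6 (13.6%, where 23% were). The median was 0.05 against 0.02, with 0 called. Nfkbia, the inhibitor of NF-kappaB, was at 14.87 and 15.16 in control, 16.13 and 16.14 in STZ, and 16.10 and 16.35 in STZ+MENS, so that both STZ groups stood above control as for Egr1 and Junb. Its difference was 1.21 ± 0.17 (adjusted p = 0.111). Klf10 (1.34 ± 0.32, adjusted p = 0.133) and the clock gene Per1 (1.11 ± 0.19, adjusted p = 0.113) were higher, and Plk3 was lower (-1.57 ± 0.37, adjusted p = 0.134).

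**Figure D5:**
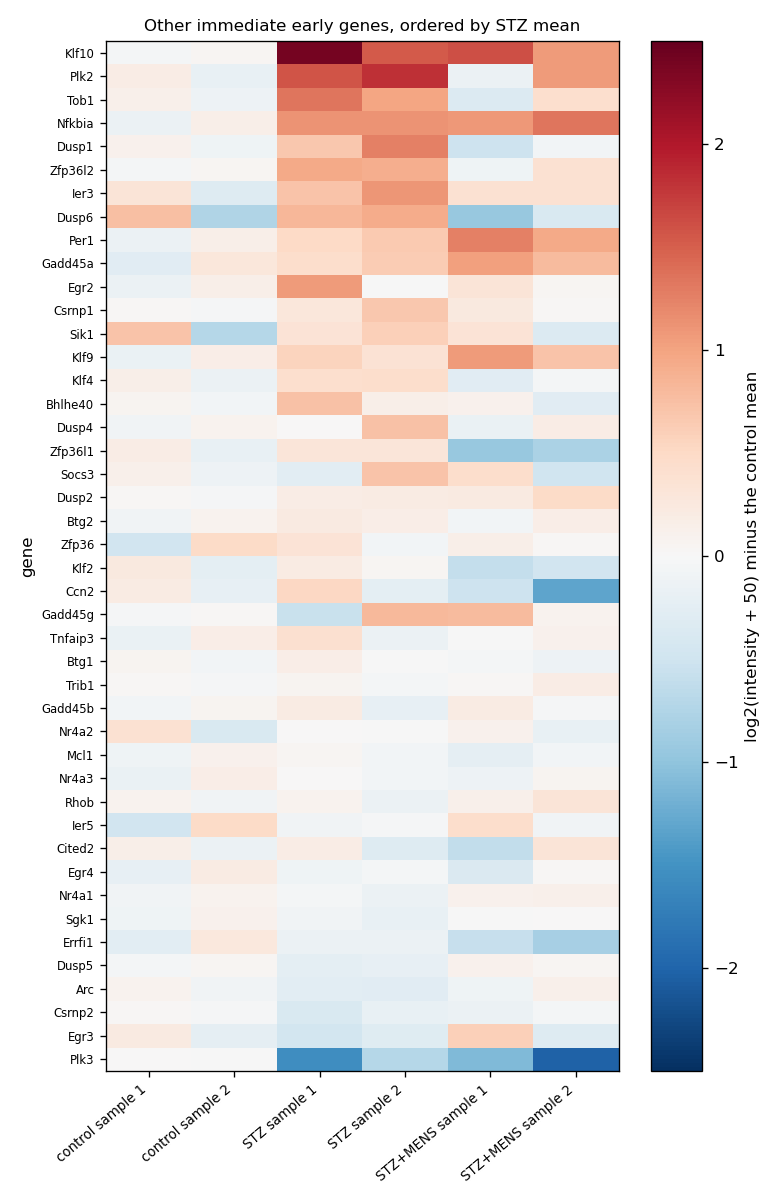
Levels of 44 other immediate early genes (rows) in the 6 samples (columns), coloured by log2(intensity + 50) minus the control mean and ordered by their mean in STZ. Klf10 and Plk2 lead in STZ, Plk3 is at the bottom, and Dusp6 is high in control sample 1 and both STZ samples.

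Of 36 other AP-1 and related bZIP factors, 34 were measured and 0 called. For STZ against control 9 were higher and 12 lower without overlap (26.5% and 35.3%, against 24% and 28.2% of all genes), with a median of -0.06. Nfe2l2, the antioxidant regulator NRF2, led at 1.22 ± 0.13 (adjusted p = 0.0654), followed by Maff (1.09 ± 0.29, adjusted p = 0.165) and Maf (0.88 ± 0.17, adjusted p = 0.123), relatives that share its binding element. Between STZ+MENS and STZ 12 were higher and 13 lower (35.3% and 38.2%, against 34% and 23.9% of all genes). Crem, a cAMP-responsive relative, differed by -1.29 ± 0.32 (adjusted p = 0.088), Maff by -1.11 ± 0.29 (adjusted p = 0.0926) and Nfe2l2 by -0.85 ± 0.13 (adjusted p = 0.0596). Mafk, a partner of NRF2, was higher by 0.91 ± 0.18 (adjusted p = 0.0671). Against control, 8 were higher and 8 lower in STZ+MENS (23.5% each, near the 25.6% and 23% of all genes). Crem was at -1.25 ± 0.32 (adjusted p = 0.148), Mafk at 0.98 ± 0.18 (adjusted p = 0.120), Atf5 at 0.81 ± 0.15 (adjusted p = 0.118) and Bach2 at -0.78 ± 0.17 (adjusted p = 0.129).

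Of the kinases and factors upstream of AP-1, 34 were listed, 30 were measured and 0 called, 7 were higher and 9 lower in STZ than in control without overlap (23.3% and 30%, near the 24% and 28.2% of all genes), and the median was 0.02. One of the higher ones, Mapk3, had a probe at background (mean intensity -3). For STZ+MENS against STZ 7 were higher and 10 lower (23.3% and 33.3%, against 34% and 23.9% of all genes). The lower ones included the p38 kinase Mapk14 (-1.11 ± 0.32, adjusted p = 0.109) and Cops5, a Jun coactivator (-0.98 ± 0.23, adjusted p = 0.0794). The kinase Map2k6 was higher (0.77 ± 0.22, adjusted p = 0.112). STZ+MENS was higher than control for 7 and lower for 11 (23.3% and 36.7%, against 25.6% and 23% of all genes). The Jun kinase Mapk8 was at 12.04 and 12.33 in control, 11.62 and 11.73 in STZ, and 11.41 and 11.17 in STZ+MENS (-0.89 ± 0.17 against control, adjusted p = 0.122).

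Of 29 listed targets of AP-1 or EGR1, 28 were measured and 0 called. STZ was higher than control for 8 and lower for 8 without overlap (28.6% each, near the 24% and 28.2% of all genes), with a median of -0.01. The cell cycle inhibitor Cdkn1a differed by 4.42 ± 0.58 (adjusted p = 0.0749), cyclin D1 (Ccnd1) by 1.41 ± 0.47 (adjusted p = 0.223), and the cytokine Il1b by -1.10 ± 0.20 (adjusted p = 0.110). For STZ+MENS against STZ more were higher (12, 42.9%) than lower (9, 32.1%), where 34% and 23.9% of all genes were. The largest differences were those of lower genes: the growth factor Tgfa (-1.97 ± 0.32, adjusted p = 0.0596), fibronectin (Fn1, -1.61 ± 0.40, adjusted p = 0.0868) and Sqstm1 (-1.58 ± 0.43, adjusted p = 0.0984). STZ+MENS was higher than control for 7 and lower for 7 (25% each, near the 25.6% and 23% of all genes). Nab2, which EGR1 induces and which then represses EGR1, was chosen after its values were seen: it was at 10.45 and 10.96 in control, 10.69 and 10.66 in STZ, and 12.25 and 11.76 in STZ+MENS, so it stood apart in STZ+MENS alone while Egr1 stood high in both STZ groups.

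Markers of other liver cells give the setting for these values. Of 9 cholangiocyte markers 8 were measured. Without overlap, 5 of them were higher and 0 lower in STZ than in control (24% and 28.2% of all genes were). In STZ+MENS, 0 were higher and 4 lower than in STZ without overlap (34% and 23.9% of all genes were). Against control, 4 were higher and 0 lower in STZ+MENS (25.6% and 23% of all genes were). Their mean log2 was 9.93 and 9.62 in control, 10.54 and 10.41 in STZ, and 10.04 and 10.15 in STZ+MENS. The groups did not overlap in it, and STZ+MENS stood between control and STZ, as for Junb. Their summed intensity was 16742 to 17442 in control, 20852 to 26347 in STZ and 18185 to 23515 in STZ+MENS. Spp1, the brightest of these markers, had a mean intensity of 14029. Kupffer cell and macrophage markers (11 of 12) summed to 72157 to 85518 in control, 72517 to 77035 in STZ and 73287 to 114591 in STZ+MENS. Neutrophil markers (9 of 10, with 2 or 3 of them under an intensity of 100 in each sample) summed to 3571 to 4072 over all samples. Lymphocyte markers (10 of 12) summed to 8897 to 12039, and 7 were higher and 0 lower in STZ+MENS than in STZ without overlap (34% and 23.9% of all genes were). Endothelial markers (9 of 10) summed to 80552 to 95132 in control, 75310 to 81820 in STZ and 84669 to 105946 in STZ+MENS. Both STZ+MENS sums lay above both STZ sums, but the mean log2 of these markers overlapped (12.54 and 12.32 in STZ+MENS, 12.40 and 12.41 in STZ). Without overlap 3 were higher and 2 lower in STZ+MENS than in STZ (34% and 23.9% of all genes were). Stellate cell and fibroblast markers (10 of 10) summed to 145746 to 212981, with groups that overlap. Erythroid markers were measured by 2 genes only, Alas2 and Slc4a1, summing to 79641 to 95699 in control, 32621 to 55363 in STZ, and 104836 and 9330 in STZ+MENS samples 1 and 2. No measured marker was at 0, and limma called 0 in every list. The part of these cell types in the values of Junb, Egr1 and Fos was not tested.

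Some other transcripts stood low in STZ+MENS. Of the hepatocyte markers, Apob was at 17.31 and 17.26 in control, 17.43 and 16.85 in STZ, and 14.21 and 15.84 in STZ+MENS, and Cps1 at 17.09 and 16.67, 16.94 and 16.42, and 14.67 and 16.15. Of the 6 measured hepatocyte markers, 3 were lower (Apob, Cps1 and Alb) and 2 higher (Apoa1 and Ttr) in STZ+MENS than in STZ without overlap. The shares of all genes were 23.9% and 34%. The differences of Alb, Apoa1 and Ttr cannot be read, since they lie at the top of the arrays' range. The median difference of 0.02 lies between Alb and Ttr and cannot be read either. Hypoxia genes (12 of 14) had means of 0.23 and -0.01 in STZ and -0.30 and -0.28 in STZ+MENS relative to control. Of these 12, 6 were lower and 2 higher in STZ+MENS than in STZ without overlap (23.9% and 34% of all genes were). The shifts of Apob, Cps1 and the hypoxia mean share the direction of Fos in STZ+MENS, and their part in it was not tested.

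By pattern, the genes most like the mean of the 10 members, each scaled to its SD over the 6 samples, were Bcas1 (Pearson r = 1.00), Creb3l2 (0.98), Kcna7 (0.96), Pcdhb4 (0.95) and Ctag2 (0.95), out of 1992 genes with an SD of at least 0.5. With 6 samples and so many candidates, such values are a description of these samples. The members themselves correlated with that mean at 0.77 for Jun, 0.73 for Fos and 0.72 for Atf3, but at 0.08 for Klf6, -0.05 for Jund and -0.31 for Fosb. Each member is itself part of that mean. Among themselves, Jun and Fos correlated at 0.39, Jun and Atf3 at 0.55, and Fos and Atf3 at 0.87. The mean of the members stands closest to Jun, Fos and Atf3, with split controls as in these genes (0.17 and -0.56 in the mean). It is not a pattern that Jun shares closely with Fos and Atf3. Junb, whose controls were 0.01 apart, came next at 0.61, then Egr1 (0.45), Fosl2 (0.24) and Ier2 (0.10).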

How the data were processed

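The deposited table holds linear probe intensities. From 44 to 52 of 26423 probes per array are below 0 and array medians run from 768.89 to 770.33, so background and scale had been adjusted; how is not given in the sources. The submitters' processing notes list limma 3.30.7. Per the labels' protocols, amino allyl aRNA was made from the RNA and coupled to Cy5.

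Here negative values were raised to 0, and log2 was taken after adding 50, which understates changes of dim genes; the members' mean intensities lay between 386 and 26505. Probes were named from the platform annotation (20377 with 1 symbol, 6046 unnamed here), with symbols updated through RefSeq (GRCm38.p6), and the brightest probe stood for each of 17742 genes. Log2 values of both arrays were averaged per sample, and 3 group means fitted to 6 samples with limma 3.58.1 in R 4.3.3 (lmFit, eBayes; 3 residual and 3.19 prior degrees of freedom; two-sided; Benjamini-Hochberg over all genes, threshold 0.05). The fit was tested on simulated data. With 2 samples against 2, the smallest two-sided p of an exact permutation test is 0.333. The number of samples and arrays limits the precision.

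The members and gene lists were chosen with earlier results of these data known. Besides the members, up to 4 genes per list and comparison were eligible to be named, those of largest difference without overlap and with a mean intensity of 100 or more, together with the 5 genes most like the members' mean. Same-numbered samples did not deviate together (correlations across genes of 0.01, -0.03 and -0.07), so the numbers were not used to pair samples. Alternatives covered the offset, normalization, a filter on dim genes, the probe rule, the samples and arrays in the fit, the eBayes trend, the sample number as a block, and each sample left out.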

Additional observations from a re-analysis of the deposited data

How the results depend on the processing

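With 2 samples a group, precision is limited by their number: of 540 alternative values of the members' differences, 20 took the other sign. No member was called in the fit of all 3 groups. Leaving out each sample in turn moved Jun between -0.30 and 0.98 for STZ against control, between -0.51 and 0.32 for STZ+MENS against STZ and between -0.39 and 0.88 for STZ+MENS against control. Fosl2 moved between -0.46 and 0.39, -0.0328 and 0.82, and -0.0661 and 0.78, and Jund between -0.0584 and 0.10, -0.19 and 0.56, and -0.17 and 0.58. Atf3 moved between -0.36 and 0.54 for STZ and between -0.87 and 0.0395 for STZ+MENS against control, and, for STZ+MENS against STZ, Egr1 between -0.58 and 0.60 and Ier2 between -0.034 and 0.47. With first arrays only, Egr1 was at -0.0704 for STZ+MENS against STZ; with second arrays only, Jund was at -0.0685 and Fosl2 at 0.10 for STZ against control, and Fosl2 at -0.023 for STZ+MENS against STZ. Junb, Fos, Fosb and Klf6 kept their sign in every comparison and alternative run.

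Over all genes, limma called 1 for STZ against control, 0 for STZ+MENS against STZ and 1 for STZ+MENS against control. At an offset of 200 it called 0 in both comparisons with control, with only the groups compared 181 for STZ and 2 for STZ+MENS against control, with first arrays 4 and 3 in the same order, and with second arrays 0, 30 and 0. Leaving out a sample gave 0 to 181, 0 to 1759 and 0 to 12. For STZ against control the 181 came without either STZ+MENS sample, 3 without control sample 2 and 0 without control sample 1 or either STZ sample. For STZ+MENS against STZ the 1759 came without STZ+MENS sample 2, against 1 without STZ+MENS sample 1. For STZ+MENS against control the 12 came without STZ+MENS sample 2, 3 without control sample 2, 2 without STZ+MENS sample 1 or either STZ sample, and 0 without control sample 1. With 12 arrays and the sample as a random block, which counts arrays in the residual degrees of freedom, the counts were 1204, 3079 and 1336, and Junb (adjusted p = 0.0010) and Egr1 (0.0020) passed for STZ against control, Fos (0.0038) for STZ+MENS against STZ, and Junb (0.0089), Egr1 (0.0032), Ier2 (0.0211) and Fos (0.0491) for STZ+MENS against control. With the replicate number as a block (1, 0 and 1 genes called) the adjusted p of Junb for STZ against control was 0.090, and no member's call changed.

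Members higher without overlap in STZ+MENS numbered 3 against STZ and 5 against control with first arrays only, and 0 to 3 and 3 to 5 when a sample was left out. Members lower than control without overlap then numbered 2 to 4 in STZ and 3 to 5 in STZ+MENS. Fewer samples per group make overlap rarer by construction; the cause of the other shifts was not tested.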
